A study of Danio rerio with 19 samples.

Results

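The photoreceptor and phototransduction genes of the zebrafish larva were taken from a list of 50 gene symbols, and every gene of the deposited count tables that carried one of these symbols was kept. This gave 49 genes of the 26507 listed in at least 1 count table. They were classed as 13 rod genes, 19 cone genes, 14 genes of both cell types and 3 genes of visual cycle support. The classes were assigned by symbol. RNA of whole larvae does not show which cells it came from, so the class of single genes, such as gnb1b or guca1c, was not tested. The rod gene gngt1 was not analysed here under that symbol. The symbols name genes by their known function and by no threshold on a measured value, but the list was drawn up with earlier results of these data known.

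Messenger RNA of whole larvae was sequenced in 19 samples, and the labels give neither the strain nor the age of the larvae. The control group, 4 samples in the medium named ERM in the labels, received neither compound. Atorvastatin (AVS), a statin that inhibits HMG-CoA reductase, was given at 1 µg/L (AVS high, 4 samples) or at 100 ng/L (AVS low, 4 samples). Afidopyropen (Afid), an insecticide whose target is the TRPV channel of insect sensory organs, was given at 1 µg/L (Afid high, 4 samples) or at 100 ng/L (Afid low, 3 samples). Read counts were used for 15 libraries. For Afid high only the fold changes and p-values of the authors' deposited table were used. The 3 comparisons of an exposure with the control in these counts share the same 4 control libraries. The authors' comparison of Afid high is also against ERM, and the series holds no other control samples, so its values are not separate evidence. Whether replicates came from separate tanks, clutches or pools is not stated, so the spread behind each p-value is that of the libraries themselves and may be technical.

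Photoreceptors turn light into a neural signal through a cascade that rods and cones run with related but mostly separate genes. Light activates an opsin, the opsin activates the G protein transducin, transducin releases the catalytic phosphodiesterase (PDE6) from its inhibitory subunit, and the fall in cyclic GMP closes cation channels in the outer segment. Opsin kinases and arrestins end the response of the opsin, RGS9 ends that of transducin, and guanylate cyclase with its calcium-sensing activating proteins restores cyclic GMP. In the larval zebrafish, cones mature earlier than rods and carry most of early vision.

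The 15 libraries held 8.63 to 18.6 M reads in genes. edgeR's quasi-likelihood test with Benjamini-Hochberg adjustment over all genes called 0 genes in each comparison, with 18929 genes tested for AVS high, 19267 for AVS low and 19399 for Afid low against control, and 20144 between exposed groups. At an unadjusted p under 0.05 it found 1020 lower and 637 higher genes for AVS high, 958 and 991 for AVS low, and 671 and 697 for Afid low. DESeq2 on the same counts called 61, 45 and 15 genes at an adjusted p under 0.05. Of the 49 photoreceptor genes, 46 passed edgeR's filter on low counts in the comparisons with control, and opn1lw1, guca1b and guca1d did not. All 49 had reads in at least 1 library. Markers of rods (rho, gnat1, saga), of cones (gnat2, pde6c, arr3a) and of both (crx, rcvrn3) were detected in each of the 15 libraries. Other genes of these classes were near the floor, such as the rod gene nr2e3 at 1 to 43 reads and the cone gene opn1lw1 at 0 to 8. In whole larvae, fewer photoreceptors and less RNA per photoreceptor cannot be told apart.

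The genes spanned a wide range of transcript level. Levels are read counts scaled to library size by TMM (CPM, per M reads), and levels of different genes are compared as CPM per kb of the gene length that the authors' tables list. In the control group the highest mean belonged to pde6ha, the inhibitory subunit of cone PDE6, at 780 ± 229 CPM per kb (SD, n = 4). The rod opsin rho followed at 643 ± 110 and the ultraviolet cone opsin opn1sw1 at 514 ± 166 CPM per kb (SD, n = 4). Next in order came gngt2b (a cone transducin gamma subunit) at 251, rcvrn3 (a recoverin, which inhibits opsin kinases) at 199, rbp3 (the retinoid carrier between photoreceptors and their neighbours) at 193, opn1mw1 at 135 and opn1lw2 at 133 CPM per kb. Neighbours in this order mostly overlapped in range: the ranges of the 4 control libraries overlapped for all neighbouring pairs but 3. Those were gnb1b above rpe65a, grk1b above cngb1a and pde6b above cnga1. Ranges leave out that both genes of a pair are read in the same library. Within each of the 4 control libraries, pde6ha lay above rho and rho above opn1sw1. The order of gngt2b and rcvrn3 was reversed in control replicates 1 and 3. The lowest were nr2e3, a transcription factor of rod fate, at 0.262 and opn1lw1 at 0.169 CPM per kb.

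**Figure D1:**
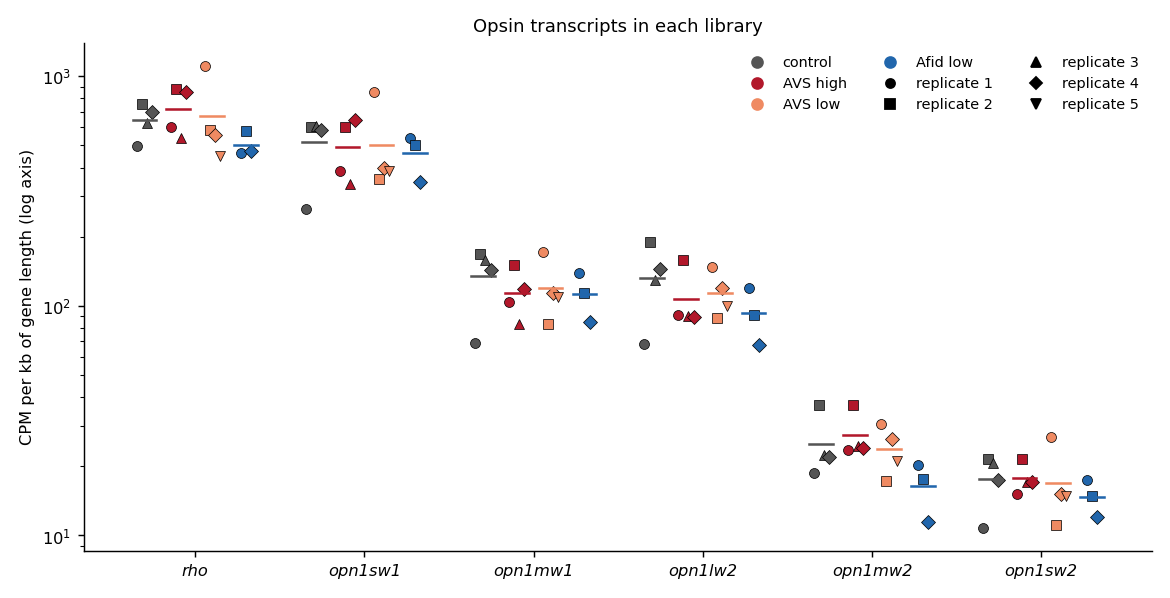
Transcript level of 6 opsin genes in each of the 15 libraries, in CPM per kb of gene length on a log axis; colours mark the group, symbols the replicate number, and short lines the group means. The order of the opsins by mean was the same in the 4 groups. Each exposed group overlaps the control for each opsin, and control replicate 1 is the lowest control library for all 6. For opn1mw2 all Afid low libraries lie below all AVS high libraries.

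Opsins of the tandem clusters were used very unequally. The red cone opsins opn1lw1 (chromosome 11, 25477643 to 25480037) and opn1lw2 (chromosome 11, 25481046 to 25483206) lie side by side on the plus strand, in the coordinates of the deposited tables, whose genome build is not given in the sources used here. The reads for opn1lw1 numbered 0 to 8 in a library, and those for opn1lw2 numbered 1567 to 5225. The green cone opsin opn1mw1 (chromosome 6, 41181869 to 41183823) had a control mean of 135 ± 44.9 CPM per kb (SD, n = 4), against 25.1 ± 8.06 for its neighbour opn1mw2 (chromosome 6, 41186320 to 41189460). The sequences of these paralogs, and those of opn1lw1 and opn1lw2, were not compared here, so the division of reads within each pair is uncertain. The blue cone opsin opn1sw2 had 17.6 ± 4.86 CPM per kb (SD, n = 4), and it overlaps hcfc1a and CT573282.1 on the other strand.

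For the share of each main cone opsin, every exposed group with counts overlapped the control. The shares are of the cone opsins among the photoreceptor genes only. The symbols opn1mw3, opn1mw4 and exorh belonged to another list and were not part of the sums. The ultraviolet opsin opn1sw1 made up 62.3% ± 2.58 of this summed cone opsin level per kb in the control (SD, n = 4). Its share was 64.5% ± 5.23 in AVS high (SD, n = 4), 63.5% ± 4.45 in AVS low (SD, n = 4) and 66.1% ± 1.69 in Afid low (SD, n = 3). The libraries of the control, from 59.1% to 64.6%, overlapped those of every exposed group. The share of opn1mw2 was 2.33% ± 0.136 in Afid low (SD, n = 3). Of the 4 control libraries, 2 lay in the range of these 3, with the others higher at 3.63% and 4.36%. The highest Afid low share of opn1mw2, 2.43%, lay below the lowest in AVS high, 2.68%, and in AVS low, 2.48%, a difference that was not tested. Of the summed level per kb of rho and these cone opsins, rho made up 44.8% ± 5.98 in the control and 48.7% ± 0.866 in AVS high. It made up 46.3% ± 4.06 in AVS low (SD, n = 4 each) and 42.3% ± 6.05 in Afid low (SD, n = 3).

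No opsin passed the adjusted threshold in AVS high, AVS low or Afid low against the control, the 3 groups with counts. For rho, the libraries held 770, 1164, 963 and 1079 CPM in the control (replicates 1 to 4), 932, 1356, 833 and 1318 CPM in AVS high, 1714, 897, 855 and 692 CPM in AVS low (replicates 1, 2, 4 and 5), and 712, 894 and 727 CPM in Afid low (replicates 1, 2 and 4). AVS low replicate 1 was the highest of the 15 and the groups overlap. The log2 fold change of rho against control was 0.16 ± 0.21 (SE) in AVS high, 0.06 ± 0.27 in AVS low and −0.34 ± 0.20 in Afid low, with an edgeR adjusted p of 0.720 or more in each. For opn1sw1 the libraries held 472, 1069, 1076 and 1039 CPM in the control, 684, 1071, 602 and 1150 CPM in AVS high, 1521, 631, 706 and 690 CPM in AVS low, and 953, 888 and 615 CPM in Afid low. Here control replicate 1 stood below all other libraries and AVS low replicate 1 above them. Its log2 fold changes were −0.06 ± 0.28, −0.04 ± 0.33 and −0.15 ± 0.28 (SE), and each turned above 0 when certain single libraries were left out.

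The other cone opsins also differed from the control by less than the tests could call. For opn1mw1 the log2 fold changes were −0.24 ± 0.26 (SE) in AVS high, −0.17 ± 0.28 in AVS low and −0.24 ± 0.28 in Afid low. For opn1lw2 they were −0.31 ± 0.28, −0.23 ± 0.27 and −0.50 ± 0.30 (SE), and for opn1sw2 they were 0.02 ± 0.22, −0.05 ± 0.28 and −0.24 ± 0.24 (SE), with edgeR adjusted p of 0.725 or more throughout. These values moved by over 1.5 times with single libraries left out. For opn1lw2 they ran from −0.581 (without AVS high replicate 2) to −0.083 (without control replicate 2) in AVS high, from −0.448 (without control replicate 1) to −0.011 (without control replicate 2) in AVS low, and from −0.732 (without Afid low replicate 1) to −0.288 (without control replicate 2) in Afid low. For opn1mw1 they ran from −0.449 (without control replicate 1) to −0.105 (without control replicate 2) in AVS high, from −0.394 (without AVS low replicate 1) to −0.030 (without AVS low replicate 2) in AVS low, and from −0.456 (without control replicate 1) to −0.087 (without Afid low replicate 4) in Afid low. The green opsin opn1mw2 had 31.3, 61.3, 37.4 and 36.5 CPM in the control and 33.6, 29.3 and 18.9 CPM in Afid low. Its log2 fold change there was −0.60 ± 0.26 (SE), with an unadjusted p of 0.0378 and an edgeR adjusted p of 0.688, and the groups overlap. Without control replicate 2 it was −0.357. All 6 tested opsins had a fold change below 0 in Afid low, 5 did in AVS low and 3 did in AVS high.

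**Figure D2:**
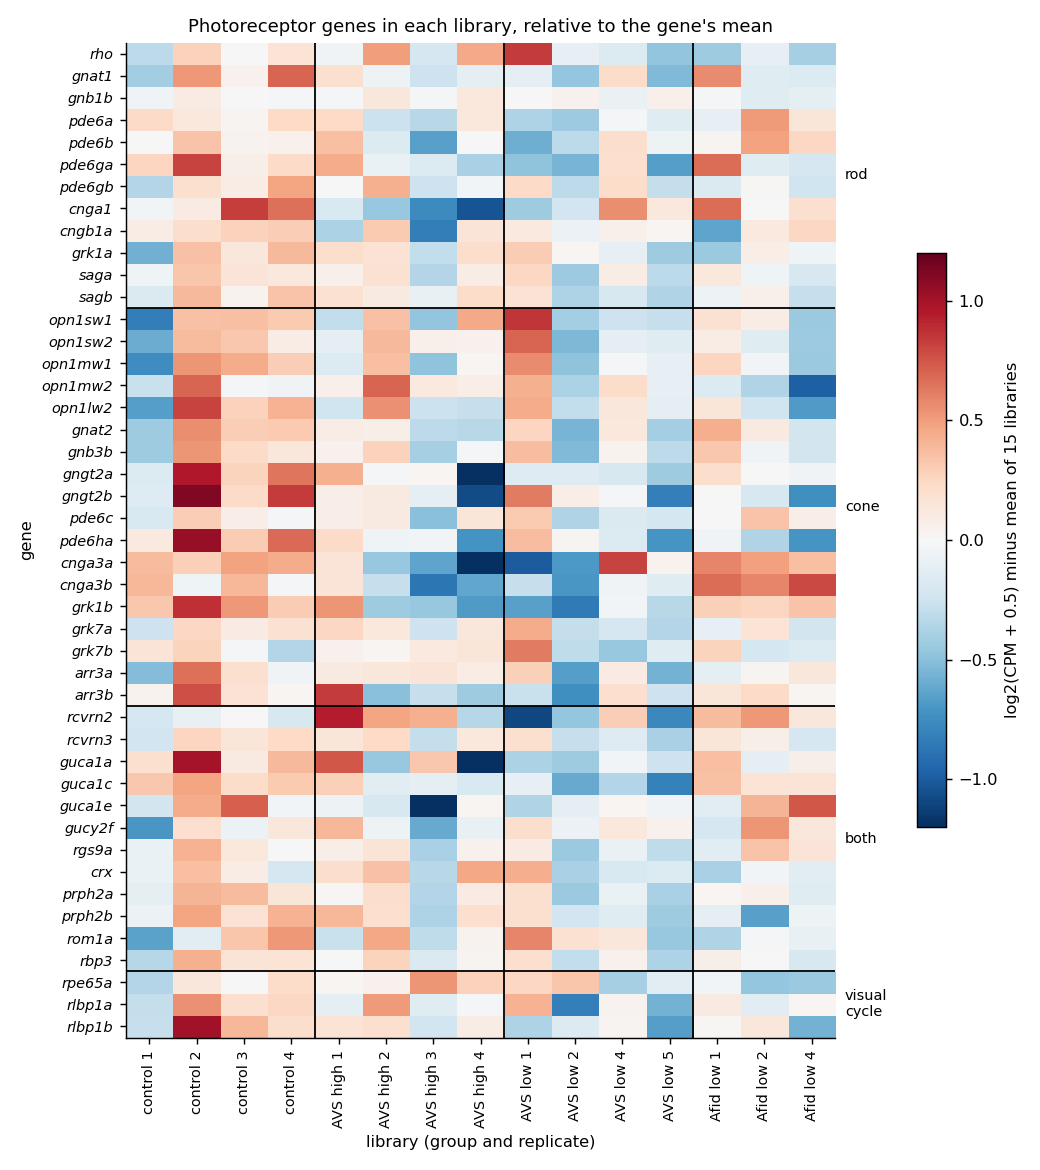
Level of each of the 45 photoreceptor genes with a mean of at least 1 CPM (rows, in the classes rod, cone, both and visual cycle) in the 15 libraries (columns), as log2(CPM + 0.5) minus the gene's mean over the libraries. Control replicate 2 is red in most rows and AVS low replicates 2 and 5 blue in most rows, while grk1b, cnga3a, cnga3b and guca1c are paler or red in Afid low and blue in most AVS libraries.

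Among the groups with counts, AVS at 100 ng/L had the most photoreceptor genes with fold changes below 0 under TMM scaling. With scaling by total counts alone, AVS low and AVS high both had 40 of 46. With a library left out, the count ran from 35 to 44 in AVS low, 27 to 39 in AVS high and 31 to 37 in Afid low. Fold changes against control were below 0 for 40 of the 46 tested genes (87.0%), against 50.8% of all 19267 genes tested, with a median log2 fold change of −0.29 against −0.01 for all genes. All 18 tested cone genes lay below 0, with a median of −0.26, as did 10 of 13 rod genes (median −0.23), 10 of 12 genes of both cell types (median −0.34) and 2 of 3 visual cycle genes. At an unadjusted p under 0.05, 11 genes were lower, against 4.97% of all genes, and 0 were higher, against 5.14%. The 4 AVS low libraries lay below all 4 control libraries for 4 genes, grk1b, guca1c, guca1a and pde6a, against 2.27% of all genes. edgeR called 0 photoreceptor genes after adjustment. Genes of 1 cell type vary together, so these counts are not counts of independent events.

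The opsin kinase gene grk1b (chromosome 5, 54161362 to 54197084, minus strand) was the one photoreceptor gene past an adjusted p of 0.05 in the authors' 4 deposited tables. In the authors' deposited table for AVS low it fell by 0.976 on the log2 scale with an adjusted p of 0.0366, where 0.168% of all genes passed. Its libraries held 26.7, 39.5, 30.7 and 26.5 CPM in the control, 13.4, 11.6, 20.8 and 16.8 CPM in AVS low, 30.9, 15.7, 15.4 and 13.1 CPM in AVS high, and 26.1, 25.5 and 27.2 CPM in Afid low. All 4 AVS low libraries and 3 of the 4 AVS high libraries lay below every control library, and Afid low lay at the lower edge of the control. The log2 fold change in AVS low was −0.98 ± 0.22 (SE), with an edgeR adjusted p of 0.464 and a DESeq2 adjusted p of 0.0359, and DESeq2 called 0.213% of genes in that comparison. With a library left out it ran from −1.15 to −0.84. The related kinases grk7a and grk7b, which also phosphorylate cone opsins, and the rod kinase grk1a did not move as far: grk7a had −0.14 ± 0.20 and grk1a −0.16 ± 0.23 (SE) in AVS low.

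**Figure D3:**
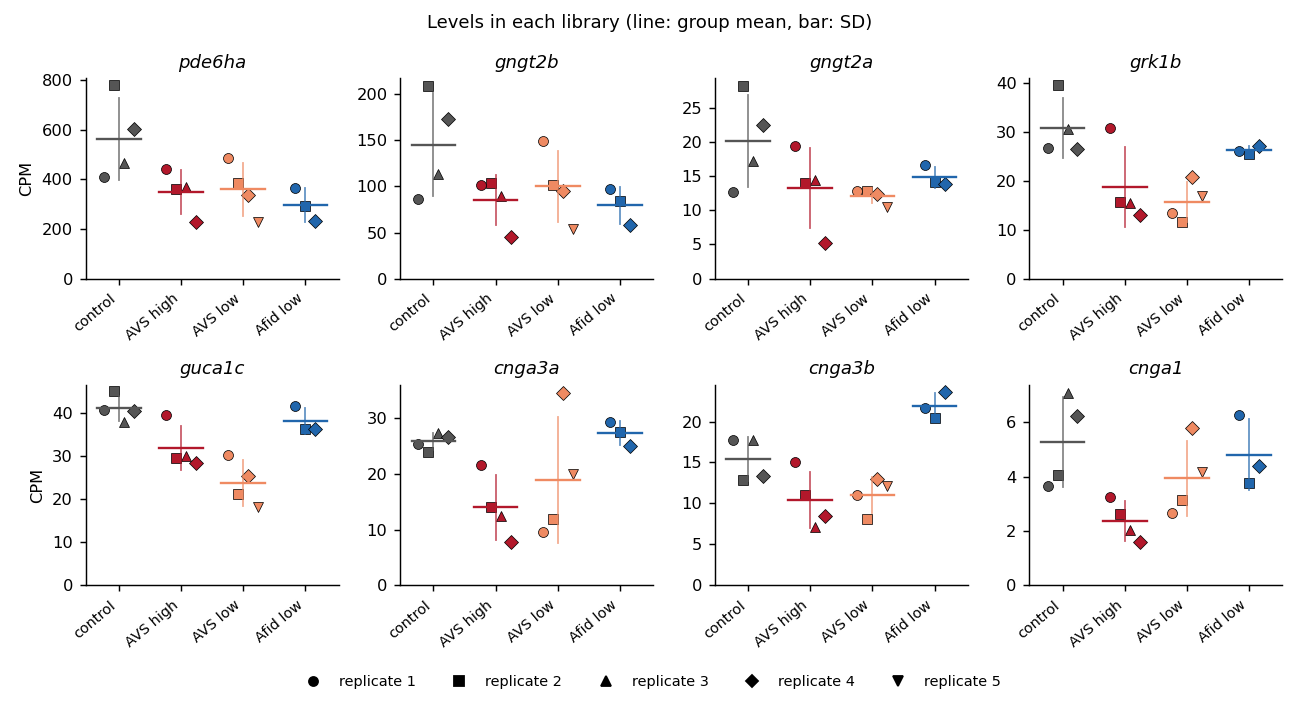
Levels in CPM of 8 photoreceptor genes in each library, by group, with the mean (line) and SD (bar) of 4 control, 4 AVS high, 4 AVS low and 3 Afid low libraries; symbols mark the replicate number. All AVS low libraries lie below all control libraries for grk1b and guca1c, and Afid low lies above all other groups for cnga3b and below the control for pde6ha.

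A calcium sensor of the guanylate cyclase pathway showed the same order of groups. The gene guca1c encodes a guanylate cyclase activating protein (chromosome 15, 2884711 to 2903475, minus strand), and its control libraries held 40.7, 45.0, 37.9 and 40.3 CPM. The AVS low libraries held 30.2, 21.1, 25.3 and 18.2 CPM, all below the control. The AVS high libraries held 39.5, 29.5, 29.9 and 28.4 CPM, of which 3 lay below every control library, and the Afid low libraries held 41.5, 36.3 and 36.3 CPM within or just below the control range. Its log2 fold change was −0.79 ± 0.18 (SE) in AVS low, with an unadjusted p of 0.000732, an edgeR adjusted p of 0.464 and a DESeq2 adjusted p of 0.0540. In AVS high it was −0.36 ± 0.16 (SE) with an unadjusted p of 0.0403. The gene overlaps mre11a on the other strand, and the strand option of the counting is not given in the sources used here.

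In AVS low, 6 more genes had an unadjusted p under 0.05 and are described here, and their roles in the cascade differ. The related gene guca1a had 3.43, 6.36, 3.21 and 3.99 CPM in the control and 2.14, 2.06, 2.86 and 2.39 CPM in AVS low. The groups do not overlap there, with a log2 fold change of −0.85 ± 0.32 (SE) and an edgeR adjusted p of 0.464, at 27 to 97 reads a library. The cone arrestin arr3b was at −0.51 ± 0.23 (SE) in AVS low, and at −0.31 without control replicate 2. Among rod genes, the PDE6 inhibitory subunit pde6ga had 16.6, 24.6, 14.5 and 16.2 CPM in the control and 9.70, 9.19, 15.9 and 8.51 CPM in AVS low. Its fold change of −0.73 ± 0.25 (SE) had an unadjusted p of 0.0116, and 3 of 4 AVS low libraries lay below the control. The catalytic rod subunit pde6a, which overlaps TMEM216 on the same strand, was at −0.40 ± 0.17 (SE). The disc rim protein gene prph2b held 35.7 to 52.4 CPM in the control and 27.8 to 42.8 CPM in AVS low, a difference of −0.41 ± 0.18 (SE) with overlapping groups. Rlbp1b, a retinoid-binding protein gene of Müller glia, was at −0.72 ± 0.29 (SE), and at −0.43 without control replicate 2.

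In AVS at 1 µg/L, fold changes were below 0 for 35 of 46 genes (76.1%), against 50.2% of all 18929 genes, with a median of −0.14. This comprised 14 of 18 cone genes (median −0.25), 10 of 13 rod genes (median −0.14) and 9 of 12 genes of both cell types (median −0.11). At an unadjusted p under 0.05, 7 genes were lower, against 5.39% of all genes, and 0 were higher, against 3.37%. They were cnga1, cnga3a, cnga3b, gngt2b, pde6ha, grk1b and guca1c. Of the 46 genes, AVS high lay wholly below the control for 2, cnga1 and cnga3a, against 2.95% of all genes, so this count was near the background. The edgeR adjusted p was 0.410 or more for all 7 genes of unadjusted p under 0.05. DESeq2, which called 0.329% of genes, called 0 of the photoreceptor genes.

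Of the 4 cyclic nucleotide-gated channel subunits among the photoreceptor genes, 3 were lower at an unadjusted p under 0.05 at this dose, against 5.39% of all genes. Further channel subunit symbols belonged to the list of further phototransduction genes, and their values are not given here. The fourth, the rod subunit cngb1a, was at −0.34 ± 0.23 (SE). The cone subunit cnga3a held 25.4, 23.9, 27.4 and 26.7 CPM in the control, a narrow range, and 21.7, 14.1, 12.4 and 7.77 CPM in AVS high, all lower. Its log2 fold change was −0.89 ± 0.26 (SE), with an unadjusted p of 0.00417 and an edgeR adjusted p of 0.410. In AVS low the same gene held between 9.5 and 34.6 CPM, with libraries on both sides of the control. The rod subunit cnga1 held 3.67, 4.06, 7.09 and 6.24 CPM in the control and 3.26, 2.62, 2.02 and 1.58 CPM in AVS high. These groups do not overlap, at 21 to 100 reads a library, and the log2 fold change was −1.16 ± 0.35 (SE) with an edgeR adjusted p of 0.428.

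The second cone channel subunit, cnga3b (chromosome 1, 10771457 to 10776547, plus strand), had values below the control mean in both AVS groups and above it in Afid low. Its libraries held 17.8, 12.9, 17.8 and 13.3 CPM in the control, 15, 11, 7.15 and 8.53 CPM in AVS high, 11, 8.06, 13 and 12.1 CPM in AVS low, and 21.7, 20.4 and 23.6 CPM in Afid low. The Afid low libraries were the 3 highest of the 15. Against control the log2 fold change was −0.57 ± 0.25 (SE) in AVS high, −0.49 ± 0.21 in AVS low and 0.52 ± 0.18 in Afid low, with unadjusted p of 0.0385, 0.0396 and 0.0156 and edgeR adjusted p of 0.550, 0.481 and 0.688. In the authors' deposited table for Afid high its log2 fold change was 0.113.

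**Figure D4:**
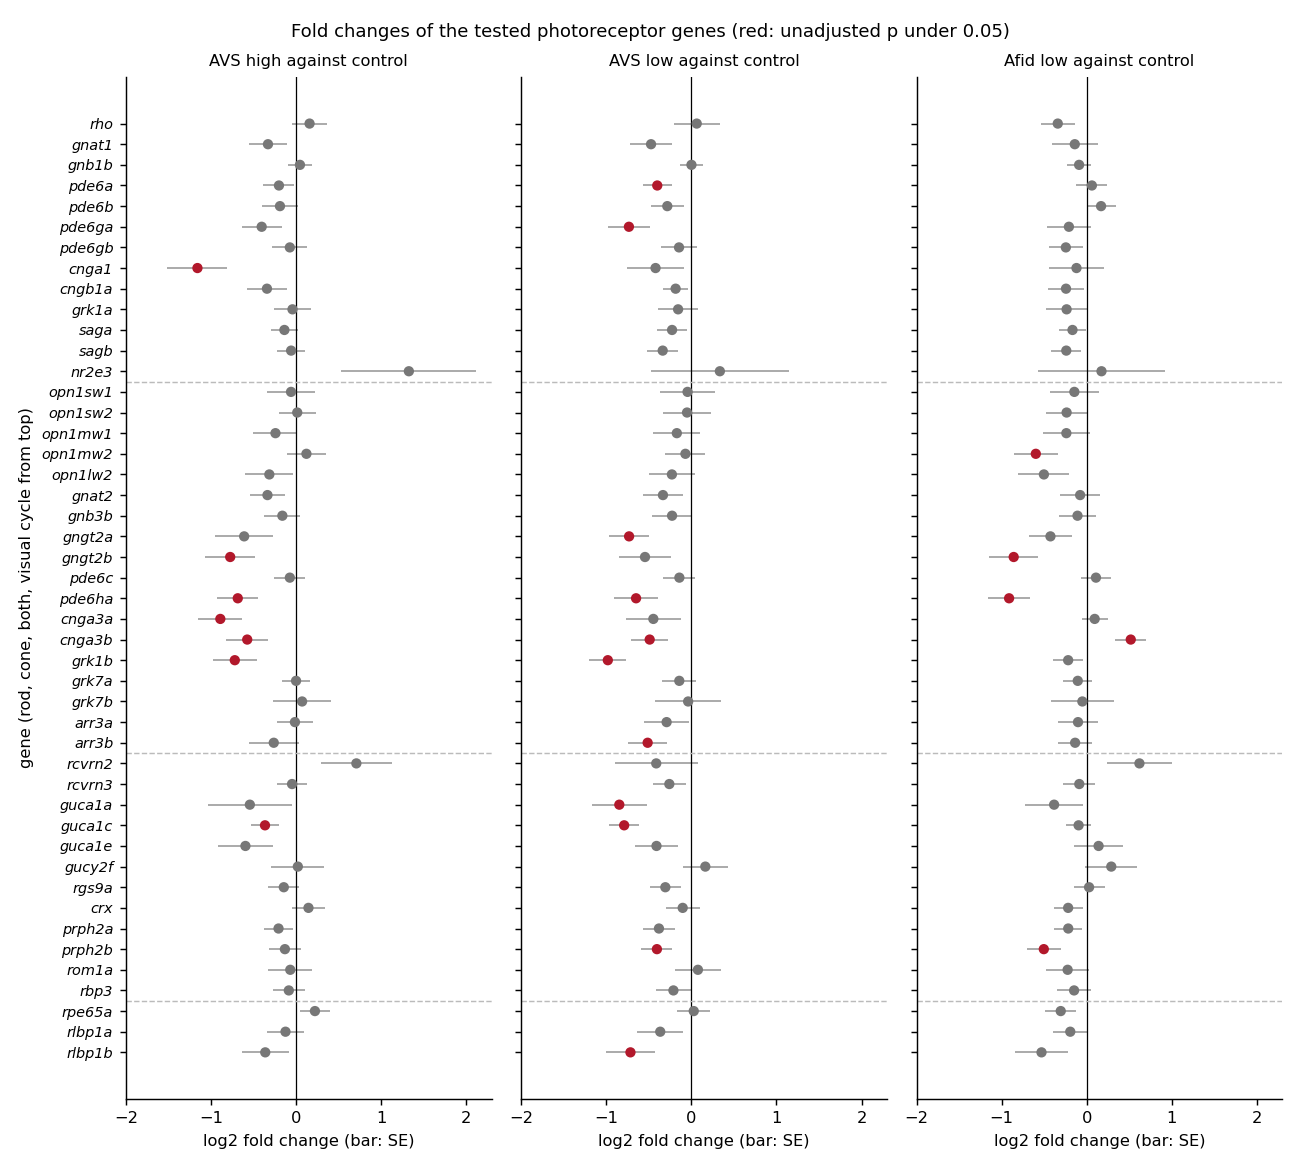
Log2 fold change against control (point) with its SE (bar) for the 46 tested photoreceptor genes in AVS high, AVS low and Afid low, ordered by rod, cone, both and visual cycle; red marks an unadjusted p under 0.05. Most points lie left of 0 in each panel, 40 of 46 in AVS low, and cnga3b is red on the left in both AVS panels and on the right in Afid low.

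In Afid at 100 ng/L, as in AVS high, the 2 small cone subunits pde6ha and gngt2b were lower at an edgeR unadjusted p under 0.05. Fold changes were below 0 for 36 of 46 genes (78.3%), against 49.2% of all 19399 genes, with a median of −0.16. With scaling by total counts alone, which moves the median of all genes to 0.13, the count became 27 of 46. At an unadjusted p under 0.05, 4 genes were lower, against 3.46% of all genes, and 1 was higher, against 3.59%. The lower genes were pde6ha, gngt2b, opn1mw2 and prph2b, and the higher gene was cnga3b. Afid low lay below the control for 1 gene, against 4.29% of all genes, and above it for 2, cnga3b and rcvrn2, against 4.56%, so these counts were near the background. rcvrn2 had 21 or 22 reads in each control library. edgeR and DESeq2 called 0 of the photoreceptor genes, and DESeq2 called 0.0743% of all genes.

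The cone PDE6 inhibitory subunit pde6ha (chromosome 6, 344423 to 346084, minus strand) held 409, 780, 465 and 605 CPM in the control and 367, 293 and 231 CPM in Afid low, which did not overlap. In AVS high it held 443, 363, 369 and 229 CPM, and in AVS low 487, 385, 337 and 230 CPM. Every exposed group thus had 3 libraries below the lowest control library. The log2 fold change was −0.91 ± 0.25 (SE) in Afid low, −0.68 ± 0.24 in AVS high and −0.65 ± 0.26 in AVS low, with edgeR adjusted p of 0.688, 0.481 and 0.471, and DESeq2 gave an adjusted p of 0.0987 for Afid low. In the authors' deposited table for Afid high it was −0.836 with an adjusted p of 0.115. Without control replicate 2, the log2 fold change was −0.721 in Afid low, −0.487 in AVS high and −0.457 in AVS low.

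The cone transducin gamma genes gngt2a and gngt2b lay in the same direction. For gngt2b the control held 86.7, 209, 113 and 173 CPM, AVS high 102, 104, 89.5 and 45.6 CPM, AVS low 149, 102, 94.8 and 54.3 CPM, and Afid low 96.7, 84.3 and 57.8 CPM. All groups overlap the wide control range. Its log2 fold change was −0.77 ± 0.29 (SE) in AVS high, −0.55 ± 0.31 in AVS low and −0.86 ± 0.29 in Afid low. For gngt2a the control held 12.7, 28.2, 17.3 and 22.5 CPM and AVS low 12.8, 12.8, 12.4 and 10.5 CPM in its 4 libraries, a log2 fold change of −0.73 ± 0.24 (SE) with an edgeR adjusted p of 0.464. The libraries of AVS low agree closely here, and the spread lies in the control.

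These 3 genes are also the only photoreceptor genes shorter than 1 kb, at 724 bases for pde6ha, 658 for gngt2a and 580 for gngt2b. Protein-coding genes shorter than 1 kb were lower too: 62.7% of 1494 such genes lay below 0 in AVS high (median −0.13), 65.8% of 1528 in AVS low (median −0.19) and 59.4% of 1565 in Afid low (median −0.12). The part of gene length in the values of pde6ha, gngt2a and gngt2b was not tested. The remaining 43 tested photoreceptor genes had medians of −0.13, −0.26 and −0.15. The ratio of pde6ha to the catalytic subunit pde6c was 1.56 ± 0.289 in the control, 1.08 ± 0.386 in AVS high and 1.11 ± 0.269 in AVS low (SD, n = 4 each), and 0.787 ± 0.236 in Afid low (SD, n = 3). The 3 Afid low ratios, 1.06, 0.671 and 0.632, lay below the 4 control ratios, whose lowest was 1.28. In AVS high and AVS low the highest ratios, 1.51 and 1.43, lay within the control range. Ratios were chosen after values had been seen and were not tested.

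**Figure D5:**
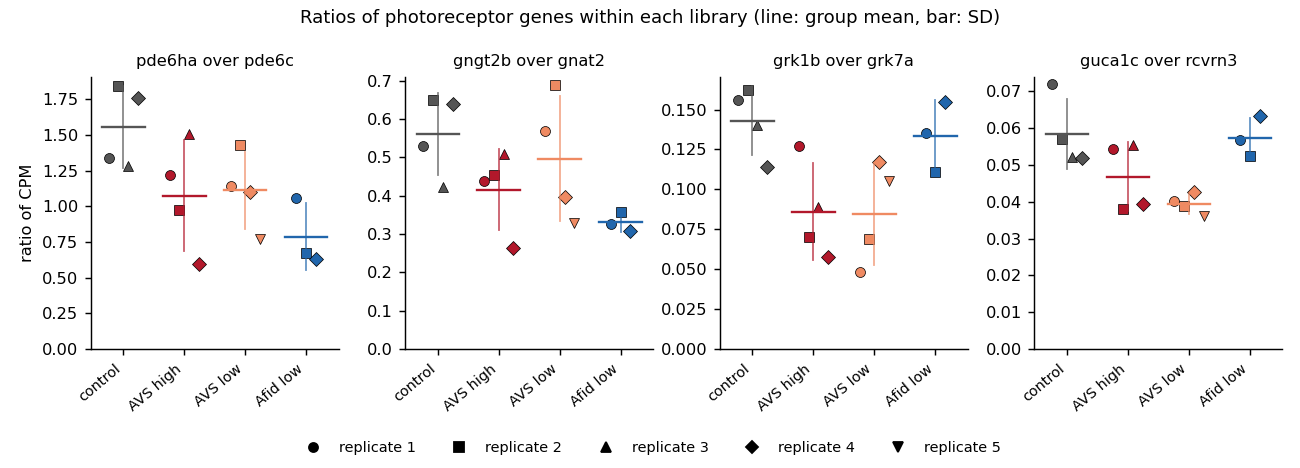
Ratio of CPM of related photoreceptor genes within each library, by group, with the mean (line) and SD (bar) of 4 control, 4 AVS high, 4 AVS low and 3 Afid low libraries: pde6ha over pde6c, gngt2b over gnat2, grk1b over grk7a, and guca1c over rcvrn3. All 4 AVS low ratios of guca1c over rcvrn3 lie below all control ratios, and all 3 Afid low ratios of pde6ha over pde6c and of gngt2b over gnat2 do so.

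Ratios of grk1b and guca1c to abundant photoreceptor genes of the same library had lower means in AVS low than in the control. Both genes were picked for their low values in AVS low, so these ratios follow in part from that choice. The ratio of guca1c to rcvrn3 was 0.0721, 0.0572, 0.0521 and 0.0519 in the control libraries and 0.0403, 0.0388, 0.0427 and 0.0362 in AVS low, with no overlap. The ratio of grk1b to grk7a was 0.143 ± 0.0213 in the control and 0.0847 ± 0.0318 in AVS low (SD, n = 4 each), where 0.117 in AVS low replicate 4 lay just above the lowest control ratio of 0.114. Mean ratios for Afid low lay in the control range for both pairs, at 0.0575 ± 0.00542 and 0.134 ± 0.0219 (SD, n = 3). The ratio of gngt2b to the transducin alpha gene gnat2 was 0.561 ± 0.107 in the control (SD, n = 4) and 0.330 ± 0.0247 in Afid low (SD, n = 3). It was 0.416 ± 0.106 in AVS high and 0.496 ± 0.163 in AVS low (SD, n = 4 each), both overlapping the control, and AVS low replicate 2, at 0.688, lay above the highest control ratio of 0.650. Ratios of both cone channel genes to pde6c overlapped the control. For cnga3b the lowest Afid low ratio was 0.0468 and the highest control ratio 0.0585. For cnga3a the highest AVS high ratio was 0.0597 and the lowest control ratio 0.0564. For gngt2b over gnb3b the highest Afid low ratio, 0.414, lay below the lowest control ratio, 0.461.

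At 1 µg/L of Afid, 41 of the 49 genes had a fold change below 0 in the authors' deposited table (83.7%), against 46.9% of all 25853 genes, with a median of −0.291. Other lists were mostly below 0 too, with 90.9% of other visual cycle genes, 85.0% of retinal interneuron genes and 83.3% of pineal genes. For pigment genes it was 81.8%, for further phototransduction genes 66.7%, for neuronal genes 63.2% and for lens genes 57.4% in that table. All 7 opsins were below 0 there, from −0.125 for opn1lw1 to −0.629 for opn1mw2, with −0.520 for rho. At an unadjusted p under 0.05 in the authors' table, 8 genes were lower, against 3.74% of all genes, and 0 were higher, against 3.30%. They included rpe65a, the isomerase of the retinal pigment epithelium, at −0.594, crx, a transcription factor of photoreceptors, at −0.560, and rbp3 at −0.420. The authors' deposited table gave an adjusted p for 18 of the 49, of which 0 were under 0.05, and none for the other 31, among them opn1mw2 and crx. Of all genes there, 2797 had an adjusted p and 9 had one under 0.05, which is 0.0348% of the genes with a p-value.

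Tested against each other at the same dose, AVS low and Afid low gave the smallest unadjusted p among photoreceptor genes for cnga3b, guca1c and grk1b. In 1 edgeR fit of the 15 libraries, cnga3b was lower in AVS low by a log2 fold change of −0.99 ± 0.24 (SE, unadjusted p = 0.000537), guca1c by −0.68 ± 0.18 (unadjusted p = 0.00121) and grk1b by −0.75 ± 0.26 (unadjusted p = 0.0102). The edgeR adjusted p was 0.693 for each of them. For all 3 genes every AVS low library lay below every Afid low library. Of 48 genes tested, 5 had an unadjusted p under 0.05 and were lower in AVS low, against 3.61% of all genes, and 0 were higher, against 3.12%. Lower values without overlap were found for 5 genes, against 3.66% of all genes: cnga3b, guca1c, grk1b, gngt2a and guca1d. For guca1d this rests on 0 to 4 reads a library in AVS low and 6 to 10 in Afid low. The direction over all 48 genes was mixed, with 29 below 0 (60.4%), against 46.7% of all genes. Leaving out AVS low replicate 1 moved this count to 38. All 6 tested opsins were nominally higher in AVS low, with a median of 0.25, but replicate 1 was its highest library for all 6. Without it, opn1sw1 held 631, 706 and 690 CPM in AVS low, against 953, 888 and 615 CPM in Afid low. For opn1mw2 these values were 28.8, 43.9 and 35.2 CPM, against 33.6, 29.3 and 18.9 CPM.

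Testing whether a gene differed among the 4 groups at all, edgeR gave an adjusted p of 0.484 for cnga3b and for guca1c, with unadjusted p of 0.000714 and 0.00101. In that test 7 of 48 photoreceptor genes had an unadjusted p under 0.05, against 9.83% of all genes. DESeq2's test of the same question gave adjusted p of 0.0215 and 0.0344, and it called 0.352% of the genes with an adjusted p. grk1b had 0.0730 in that test. Between AVS high and AVS low, 3 photoreceptor genes had an unadjusted p under 0.05. Of these cnga1 was lower in AVS high at −0.74 ± 0.34 (SE), and at −0.479 without AVS low replicate 4, against 4.05% of all genes lower, and rcvrn2 and guca1c were higher at 1.12 ± 0.46 and 0.42 ± 0.17, against 1.39% higher. The edgeR adjusted p was 0.893 or more. Of 48 genes, 13 lay below 0, against 48.9% of all genes, but 24 did with scaling by total counts alone, which moves the median of all genes to −0.13.

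Single libraries carried much of the variation among photoreceptor genes. Of 45 genes with a mean of at least 1 CPM, control replicate 1 was the lowest control library in 35 and control replicate 2 the highest in 32. In AVS low, replicate 1 was the highest of its group in 30, including all 6 tested opsins. The coefficient of variation over the control libraries had a median of 32.2% for 6 opsins, 27.6% for 17 cone genes and 17.2% for 11 rod genes, against 17.1% for all 10009 genes with at least 10 CPM in the control. Without control replicate 2, the count of genes below 0 was 27 of 47 in AVS high, 35 of 46 in AVS low and 31 of 45 in Afid low, with medians of −0.044, −0.195 and −0.065. The median also moved by over 1.5 times without control replicate 1 (−0.22 in AVS high and −0.28 in Afid low), without AVS high replicate 2 (−0.22) or 3 (−0.04), without AVS low replicate 5 (−0.18) and without Afid low replicate 4 (−0.10). For cone genes in AVS low it was −0.42 without AVS low replicate 1, −0.14 without replicate 2, −0.43 without control replicate 1 and −0.08 without control replicate 2. With a library left out, the medians in AVS high ran from −0.391 to −0.069 for cone genes, −0.195 to −0.039 for rod genes and −0.204 to −0.012 for genes of both cell types. In Afid low they ran from −0.274 to −0.057, −0.271 to −0.094 and −0.223 to −0.047.

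Most lists of neighbouring cell types and pathways also had a majority of fold changes below 0. Among 42 further listed phototransduction genes, 28 of 37 tested lay below 0 in AVS high (median −0.19) and 29 of 37 in AVS low (median −0.28). In Afid low 21 of 38 did (median −0.04). At an edgeR unadjusted p under 0.05, 4, 10 and 2 were lower, against 5.39%, 4.97% and 3.46% of all genes. In the same order 0, 0 and 1 were higher, against 3.37%, 5.14% and 3.59%. Of these further genes tulp1b, a tubby-like gene of photoreceptors, was at −1.01 ± 0.30 (SE) in AVS high and −0.67 ± 0.25 in AVS low. rp1l1b, an axoneme gene of the outer segment, was at −1.10 ± 0.38 (SE) in AVS low and 0.88 ± 0.36 in Afid low, the same pattern of sign as cnga3b. Other visual cycle genes lay below 0 in 12 of 20, 14 of 20 and 15 of 19 cases, among them lratb.2 at −0.94 ± 0.33 (SE) in AVS low.

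Retinal interneuron genes were below 0 in 18, 18 and 16 of 20 genes, with medians of −0.20, −0.25 and −0.24, and neuronal genes in 16, 19 and 17 of 19, with medians of −0.20, −0.28 and −0.17. The summed level of the 19 neuronal genes ran from 3344 to 5189 CPM in the control, 3100 to 3855 in AVS high, 2752 to 3945 in AVS low and 3495 to 3849 in Afid low, and none of them was at 0. Pigment genes lay below 0 in 5, 9 and 11 of 11 (median −0.27 in Afid low), and pineal genes in 3, 5 and 3 of 5. Lens genes lay above 0 in 32 of 36 in AVS high (median 0.45), 20 of 36 in AVS low and 25 of 37 in Afid low. The summed level of the photoreceptor genes overlapped among groups, at 5016 to 8488 CPM in the control, 5162 to 7287 in AVS high, 4858 to 8405 in AVS low and 5138 to 6331 in Afid low. The part of neuronal content, or of any library's overall state, in the photoreceptor values was not tested.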

How the data were processed

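The tools named in the submitters' processing notes are fastp, HISAT2, featureCounts and DESeq2. Their versions, settings, strand option and the genome build were not given in the sources used here. By the labels' protocols, libraries were poly(A)-selected and directional. Raw counts per gene were deposited by the authors in 3 tables, of which each holds 1 exposure (AVS high, AVS low or Afid low) and the 4 control libraries. The control counts agree between tables (0 genes differed). The 4 tables deposited by the authors also hold log2 fold changes, p-values and adjusted p-values; an adjusted p of 1 was taken as missing. A further 46 columns of per-sample values were left out. No counts of Afid high were used, so a planned use of its libraries was dropped.

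Each exposure was compared with the control in its own table by edgeR 4.0.16 in R 4.3.3 (quasi-likelihood test, TMM, filterByExpr, Benjamini-Hochberg, threshold 0.05). Comparisons between exposures and among groups used 1 fit of 15 libraries on the 24886 genes that the 3 count tables share. The SE of a log2 fold change was obtained as its size over the square root of the F statistic. CPM are those of the joint scaling. DESeq2 1.42.0, other scalings, no filter, a replicate block and leaving out each library were alternatives. The fit was also run on simulated data with the same dispersion for every gene. That run does not show how the fit performs on genes of wider spread, such as the opsins. No pair of libraries was a duplicate: over 21 pairs within groups the chi-square per degree of freedom was at least 7.43.

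The members and the other gene lists were chosen with earlier results of these data known. Values per library were given for opsins, for genes past the threshold in any table, for up to 5 genes of smallest unadjusted p under 0.05 per comparison and direction, and for the paralogs with the widest level ratio. Other lists name at most 3 genes each, those of smallest p. The division of reads between close paralogs, and the values of the 7 members overlapping another gene, are uncertain.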

Additional observations from a re-analysis of the deposited data

Results flagged for a closer look

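Of 54 sets of 4 libraries among the named photoreceptor genes, 7 held a library set apart from the other 3 by Dixon's criterion. Chance sets apart about 1 in 20 independent sets. These sets are not independent, since genes vary together within a library and some were picked for small p, so no excess over chance can be read. In the control, opn1sw1 was at 472 CPM in replicate 1, against 1039 to 1076 CPM in the other 3 libraries. In AVS low, opn1sw1 was at 1521 CPM in replicate 1, against 631 to 706 CPM. In AVS high replicate 2, opn1mw2 was at 61.6 CPM, against 39.2 to 40.8 CPM, and opn1lw2 at 286 CPM, against 161 to 165 CPM.

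In AVS high replicate 1, grk1b was at 30.9 CPM, within the control range, against 13.1 to 15.7 CPM in the other 3 AVS high libraries. In the same library guca1c was at 39.5 CPM, against 28.4 to 29.9 CPM. In AVS low replicate 4, pde6ga was at 15.9 CPM, against 8.51 to 9.70 CPM. Without AVS high replicate 1, the log2 fold change of grk1b in AVS high was −1.07 and that of guca1c was −0.48.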

How the results depend on the processing

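DESeq2 called 61 genes for AVS high, 45 for AVS low, 15 for Afid low, 5 for AVS high against AVS low and 74 among all groups, where edgeR called 0 in each. Of the photoreceptor genes it called grk1b in AVS low (log2 fold change −0.976), and cnga3b (adjusted p = 0.0215) and guca1c (adjusted p = 0.0344) among all groups. edgeR without its low-count filter called 2 genes for AVS high, and for Afid low it called 0 to 1 with a library left out (1 without control replicate 4). Of 48 genes, those below 0 in AVS high against AVS low numbered 24 with total-count scaling and 6 to 19 with a library left out. Total-count scaling moved the median of the photoreceptor genes to −0.232 in AVS high and −0.035 in Afid low, and gave 40 of 46 below 0 in AVS high and 34 of 48 in AVS low against Afid low.

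The labels name no pairing of samples by replicate number. Over 10 same-numbered pairs the correlation of deviations ran from −0.278 to 0.152, and 1 was over 0.1. So few libraries cannot exclude a pairing. With the number as a replicate block, opn1sw1 turned to 0.084 and opn1sw2 to 0.042 in AVS low. Members below 0 then numbered 34, 39 and 37 of 46 against control, and edgeR called 0 genes in each comparison. The median of the photoreceptor genes with this block was −0.192 in AVS low against control and −0.031 in AVS low against Afid low. Opsin fold changes near 0 changed sign. In AVS high opn1sw2 was −0.078 with total-count scaling. With a library left out, the ranges were −0.263 to 0.083 (opn1sw1), −0.156 to 0.130 (opn1sw2) and −0.079 to 0.375 (opn1mw2) in AVS high. In AVS low they were −0.286 to 0.216 (rho), −0.433 to 0.089 (opn1sw1), −0.359 to 0.108 (opn1sw2) and −0.206 to 0.177 (opn1mw2), and in Afid low −0.360 to 0.011 (opn1sw1). The cause was not tested. Of 684 alternative values for single genes, 655 kept their direction and side of the threshold, 26 changed sign and 3 passed the threshold with DESeq2. Below 100 reads a library, as for cnga1 and guca1a, counting error adds to the spread.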
